A study of Caenorhabditis elegans with 12 samples.

Results

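C-type lectin genes are the named *clec* family of *C. elegans*, whose products carry a C-type lectin domain, a fold best known for binding carbohydrate. The members described here were all genes whose deposited symbol starts with *clec-* and whose raw count was at least 10 in at least 3 of the 12 libraries. That rule took 150 of the 243 *clec* genes in the table, which lists 20212 genes in all. It used no comparison between groups. At its edge, 5 members had exactly 10 counts in their third-highest library and 3 genes left out had 9. Of the 93 genes left out, 23 had no read in any library, and none of the 93 passed 34 counts in any library.

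Libraries of poly(A) RNA were made from intact L4 larvae, in 4 groups of 3 biological replicates: *mir-71* deletion animals (strain MT12993, allele *n4115*) on plates treated with sodium azide, the same strain on plates treated with water, wild-type N2 animals on azide and N2 animals on water. All animals fed on *E. coli* OP50, and the deletion is present in every cell of the mutant. Azide blocks complex IV of the respiratory chain, and the RNA sequencing sought transcripts that depend on miR-71 under mitochondrial stress. The azide dose is not given for these libraries in the sources used here.

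In nematodes, C-type lectins are thought to act mostly outside the cell, as secreted or surface proteins that bind sugars of microbes or of the animal's own matrix. Many are made in the intestine and change in level when the animal meets a pathogen, and single members serve other tissues, such as the chondroitin proteoglycans CPG-5 and CPG-6, which are encoded by *clec-87* and *clec-88*. miR-71 is a microRNA known for its part in lifespan, starvation survival and neuronal patterning in this animal. MicroRNAs lower the level or translation of messages they pair with, and these libraries measure the messages.

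The libraries held 16828108 to 23937993 counts. *mir-71* lies in an intron of *ppfr-1* and was not measured by these libraries. *ppfr-1* itself stood at 541, 549 and 796 CPM (read counts scaled to a common library size by TMM) in the deletion on azide, 426, 465 and 431 CPM in the deletion on water, 107, 103 and 106 CPM in wild type on azide and 104, 106 and 98.7 CPM in wild type on water, so the genotypes did not overlap. Marker genes of intestine, hypodermis, body wall muscle and neurons were present in every group. The deletion animals on azide differed most among themselves: between 2 and 22 members were at 0 in its 3 libraries, with replicate 1 the lowest.

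The members lie on all 6 chromosomes, with 17 on I, 33 on II, 9 on III, 37 on IV, 51 on V and 3 on X (build WBcel235). All 150 are annotated as protein coding. The deposited annotation gives the term carbohydrate binding to 89 and integral component of membrane to 17. Runs of neighbours are common: 11 groups of at least 3 members, each within 20 kb of the next, hold 53 members, and the longest has 10. The exons of 22 members share bases with another protein-coding gene, 17 of them on the opposite strand. Since strand use in the counting is not given, the reads of such pairs cannot be told apart; among the genes named below this holds for *clec-3*, *clec-83*, *clec-85*, *clec-87*, *clec-88*, *clec-91*, *clec-97* and *clec-210*.

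Levels across the family were very uneven. Per coding length, in the deposited FPKM averaged over the 12 libraries, the median member stood at 3.43 with quartiles of 1.04 and 13.6. Only 8 members reached 100 FPKM, 45 reached 10, and 36 were under 1. *clec-63* led with 1419 FPKM, followed by *clec-50* at 402, *clec-87* at 281, *clec-83* at 155, *clec-84* at 142, *clec-150* at 139, *clec-47* at 128 and *clec-1* at 124 FPKM. *clec-63* alone made up 34.0% to 48.6% of the family's summed CPM in each library.

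The summed CPM of the family was 4563 to 4847 in the deletion on azide, 3439 to 3663 in the deletion on water, 5389 to 5753 in wild type on azide and 4115 to 4295 in wild type on water. The 4 ranges did not overlap. Without *clec-63* the sums were 2492 to 2696 in the deletion on azide and 2163 to 2417 in the deletion on water. In wild type they were then 3372 to 3585 on azide and 2598 to 2832 on water. Without *clec-63*, the ranges of the deletion on azide and of wild type on water overlapped. In whole animals, more cells of a type and more RNA per cell cannot be told apart, here or in any value below.

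**Figure D1:**
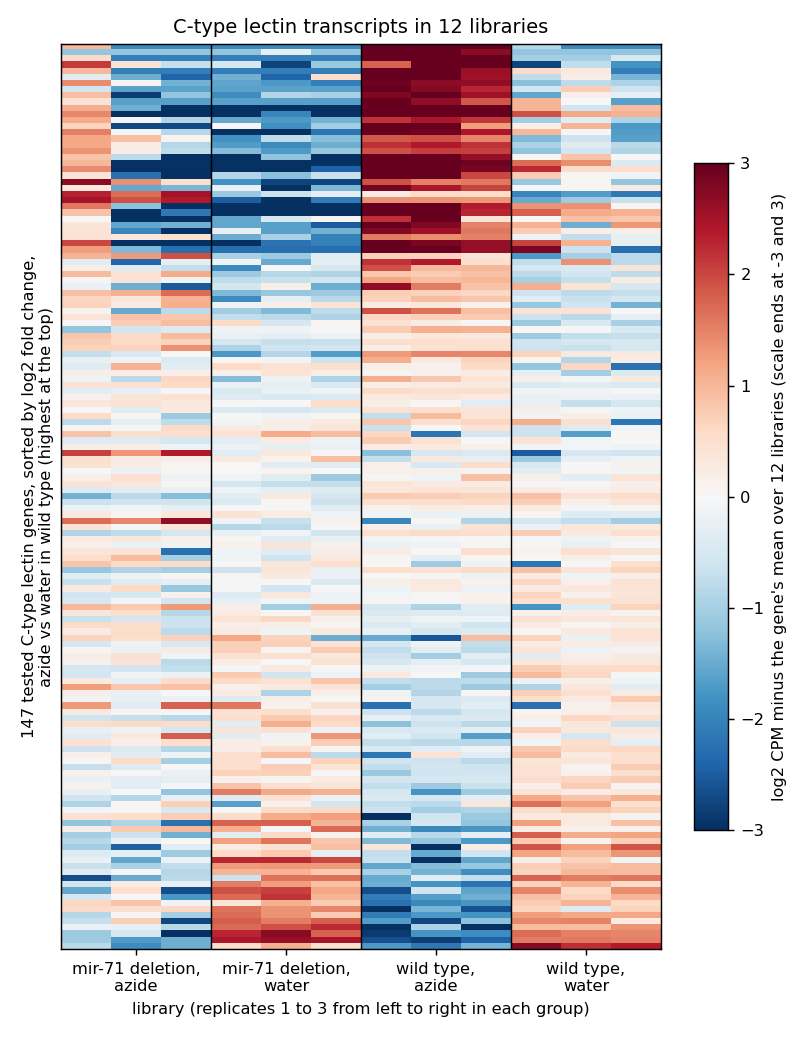
Level of 147 tested C-type lectin genes (rows) in 12 libraries (columns), as log2 CPM minus the gene's mean over all libraries, with colours saturating at -3 and 3. Rows run from the largest rise to the largest fall on azide in wild type. The wild-type azide libraries are darkest at both ends, and in the top rows replicate 1 of the deletion on azide is redder than replicates 2 and 3.

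Azide changed the levels of C-type lectin genes in both directions in wild type. Of the 147 members with enough counts to test, 53 rose and 45 fell on azide in wild-type animals (edgeR quasi-likelihood test, Benjamini-Hochberg adjusted p below 0.05 over 15048 genes); over all genes tested, 27.5% were called higher and 27.1% lower. Of the 53 rises, 22 came from a set of low members described further below. Most of that set would not have met the count rule without the wild-type azide libraries. The median log2 fold change was 0.105 for the members and -0.05 for all genes. In the deletion, 26 members rose and 29 fell on azide, against 12.3% of all genes called higher and 11.6% called lower, and the medians were -0.013 and 0.035.

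Without a library the wild-type count of rises ranged from 38, without wild-type azide replicate 1, to 58, without deletion azide replicate 1. Centring the libraries on neuron markers, of which 12 of 15 fell on azide in wild type, gave 27 falls in wild type and moved the share of rises among called members to 70.7%, against 54.1% with TMM; over all genes called, that share was 74.0% and 50.4%.

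The largest fall on azide in the deletion was at *clec-169*. It stood at 5.59, 3.65 and 4.31 CPM in the deletion on azide, against 64.8, 73.4 and 67.1 CPM in the deletion on water. In wild type it had 1.89, 1.66 and 2.21 CPM on azide and 35.8, 36.4 and 34.4 CPM on water. Neither pair of groups came near overlap. The log2 fold change was -3.92 ± 0.15 (SE) in the deletion (adjusted p = 4.7e-09) and -4.20 ± 0.16 in wild type (adjusted p = 5e-09), and the test of the difference gave an adjusted p of 0.41.

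*clec-247*, *clec-239*, *clec-229* and *clec-242* also fell on azide in both genotypes. *clec-247* averaged 0.587 ± 0.46 CPM in the deletion on azide and 7.28 ± 2.3 CPM in the deletion on water (SD, n = 3 each), a log2 fold change of -3.59 ± 0.46 (SE, edgeR adjusted p = 0.00016), and in wild type its log2 fold change was -3.83 ± 0.52. *clec-239* fell by 1.83 on the log2 scale in the deletion and by 3.11 in wild type. *clec-229* fell by 2.93 in the deletion and by 1.74 in wild type. *clec-242* fell by 2.41 in the deletion, a call that was lost without either deletion water replicate 1 (adjusted p = 0.054) or replicate 2 (0.06) or deletion azide replicate 1 (0.0589), and by 2.68 in wild type, where the call was kept in every setting. These 4 genes are low, with no group mean above 10.7 CPM.

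Among the most abundant members, *clec-1* and *clec-47* were the ones that fell on azide in both genotypes. *clec-1* had 39.1, 44.1 and 40.4 CPM in the deletion on azide and 82.9, 95.6 and 68.3 CPM in the deletion on water, and 51.1, 58.2 and 57.5 CPM in wild type on azide and 85.2, 79.1 and 80.6 CPM in wild type on water. No azide library reached a water library of its genotype. Its log2 fold changes were -0.998 ± 0.12 in the deletion and -0.55 ± 0.11 in wild type (SE, edgeR adjusted p = 7.5e-05 and 0.0011). The wild-type call was lost with libraries centred on neuron markers (-0.182, edgeR adjusted p = 0.35) or on ribosomal protein genes (-0.296, 0.113). *clec-47* changed by -0.53 ± 0.16 in the deletion, a call lost without deletion water replicate 1 (adjusted p = 0.105) or 2 (0.115), and by -0.85 ± 0.16 in wild type.

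Rises shared by both genotypes included *clec-63*, the family's most abundant transcript. Its level was 1868, 2179 and 2355 CPM in the deletion on azide, against 1307, 1246 and 1277 CPM in the deletion on water. In wild type it was 2041, 2168 and 2017 CPM on azide and 1463, 1517 and 1494 CPM on water. The groups did not overlap in either genotype, and the log2 fold changes were 0.74 ± 0.10 and 0.48 ± 0.10 (SE, edgeR adjusted p = 0.00017 in the deletion and 0.00091 in wild type). The wild-type call was lost with libraries centred on body wall muscle markers (0.324, edgeR adjusted p = 0.153).

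*clec-63* has a run of relatives around it on chromosome II, from 12893152 to 12906545. In that run *clec-62*, *clec-63*, *clec-65* and *clec-66* rose on azide in both genotypes, with log2 fold changes of 0.32, 0.74, 1.28 and 1.52 in the deletion and 0.30, 0.48, 0.99 and 1.25 in wild type. The remaining gene, *clec-64*, had 7.99, 5.84 and 6.15 CPM in the deletion on azide, 3.75, 4.07 and 4.44 CPM in the deletion on water, 1.64, 1.93 and 1.55 CPM in wild type on azide and 1.77, 4.22 and 2.65 CPM in wild type on water. Its log2 fold change was 0.70 ± 0.27 in the deletion, which missed the threshold (edgeR adjusted p = 0.071), and -0.76 ± 0.29 in wild type (0.042), a call that was lost in 9 of the 12 fits that each left out a library.

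Other members rose more steeply. *clec-174*, on chromosome IV, stood at 26.2, 17.9 and 24.5 CPM in the deletion on azide, against 0.803, 0.558 and 1.05 CPM in the deletion on water. Wild type had 12.2, 12.0 and 11.9 CPM on azide and 1.62, 2.23 and 2.94 CPM on water. All azide libraries were above all water libraries, and the log2 fold change was 4.85 ± 0.27 in the deletion and 2.40 ± 0.24 in wild type (SE; edgeR adjusted p = 1.1e-07 and 4.2e-06). *clec-17* averaged 18.1 ± 5.0 CPM in the deletion on azide and 2.48 ± 0.7 CPM in the deletion on water (SD, n = 3 each), and it rose by 2.87 ± 0.26 (SE) on the log2 scale there and by 2.42 ± 0.29 in wild type. *clec-265* rose by 2.43 ± 0.17 in the deletion and 1.39 ± 0.16 in wild type, and *clec-4* by 2.24 ± 0.28 and 1.74 ± 0.28.

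**Figure D2:**
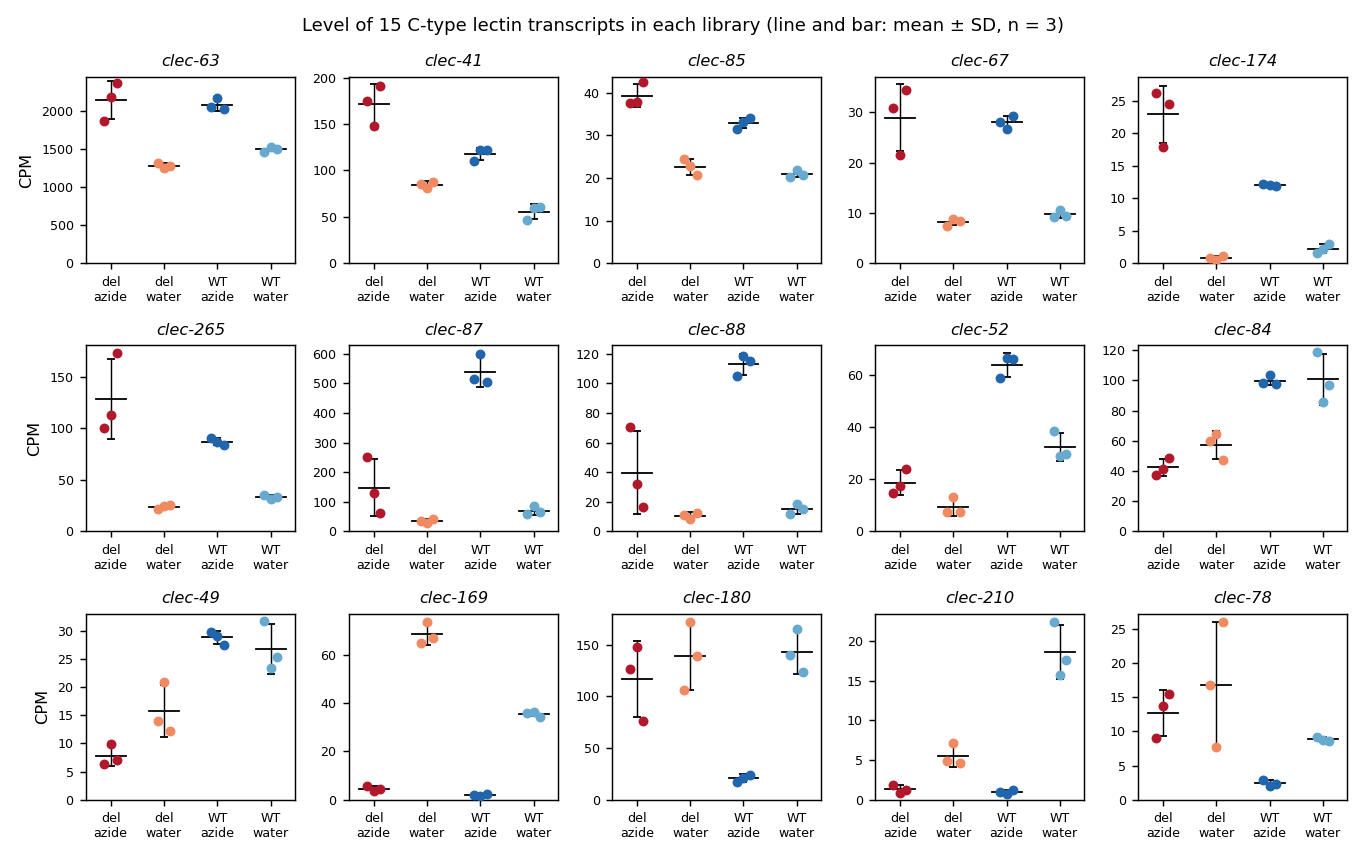
CPM (vertical axes, each from 0) of 15 named members in the 12 libraries, grouped left to right as *mir-71* deletion (del) on azide, deletion on water, wild type (WT) on azide and wild type on water; points are libraries, and lines with bars are the mean ± SD of 3. *clec-63*, *clec-67*, *clec-85* and *clec-174* are higher on azide in both genotypes, *clec-169* is lower, and *clec-180* is low in wild type on azide alone.

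**Figure D3:**
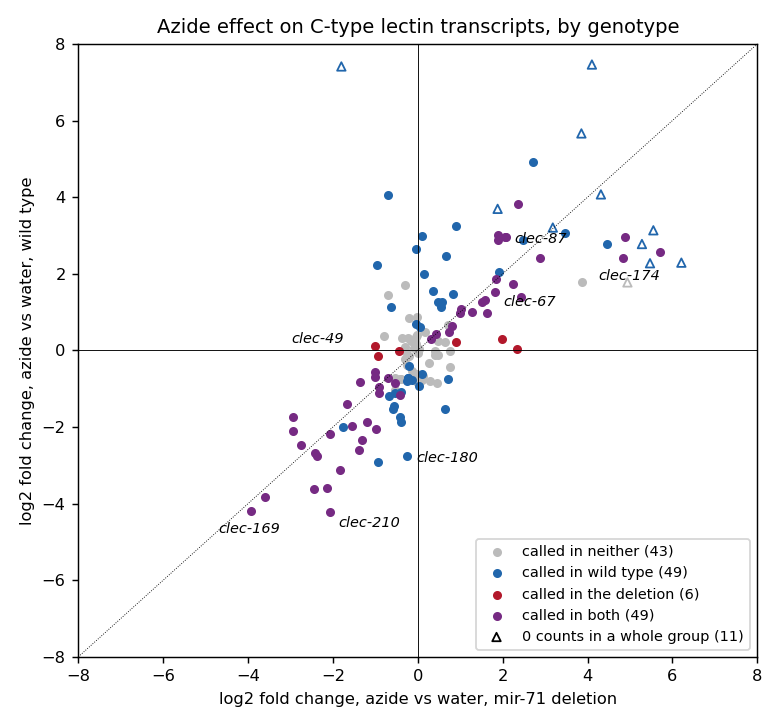
Log2 fold change on azide relative to water in the *mir-71* deletion (horizontal axis) and in wild type (vertical axis) for 147 members; colours give the genotypes in which the test was passed, and the dotted line marks equal values. Open triangles are 11 members with no count in a whole group, whose fitted values are neither measurements nor bounds. The 49 members called in both genotypes all lie at the lower left or the upper right.

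The azide comparisons in the deletion and in wild type share no library. Of the 53 members that rose in wild type, 23 (43.4%) also rose in the deletion, and these 23 are 88.46% of the 26 that rose there. For all genes tested, the corresponding shares were 35.4% and 78.9%. Of the 45 that fell in wild type, 26 (57.78%) also fell in the deletion, which is 89.66% of the 29 that fell there, and for all genes 35.2% and 82.4%. No member was called in opposite directions. Calls in wild type but not in the deletion number 49, which is not a difference between genotypes: that is tested by the interaction, below.

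Among members with a known part in defence, *clec-67* and *clec-85*, intestinal genes that depend on the p38 kinase PMK-1, rose on azide. *clec-67* had 30.8, 21.6 and 34.4 CPM in the deletion on azide and 7.45, 8.77 and 8.42 CPM in the deletion on water, against 28.04, 26.7 and 29.3 CPM in wild type on azide and 9.22, 10.6 and 9.34 CPM in wild type on water. Its log2 fold changes were 1.81 ± 0.16 in the deletion and 1.53 ± 0.16 in wild type (SE; edgeR adjusted p = 9.5e-06 and 7.5e-06). *clec-85* rose by 0.80 ± 0.10 in the deletion and 0.65 ± 0.10 in wild type. Its wild-type call was lost with libraries centred on body wall muscle markers (0.495, edgeR adjusted p = 0.134).

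*clec-60* and *clec-61*, neighbours on chromosome II that respond to Gram-positive bacteria, were low. *clec-61* fell on azide, with 0.599, 0.571 and 0.359 CPM in the deletion on azide, 2.32, 2.71 and 3.40 CPM in the deletion on water, 0, 0.331 and 0.0442 CPM in wild type on azide and 1.37, 1.34 and 1.80 CPM in wild type on water (adjusted p = 0.0033 in the deletion and 0.00031 in wild type). *clec-60* fell in wild type by 1.53 ± 0.55 on the log2 scale (edgeR adjusted p = 0.03), a call lost without wild-type water replicate 1 (0.112) or 2 (0.064) or wild-type azide replicate 1 (0.0977) or 2 (0.0985), and changed by 0.64 ± 0.58 in the deletion (0.45). *clec-49*, which has been tied to resistance against *Serratia*, is described with the interaction. *clec-7* rose in wild type by 1.27 ± 0.28 (adjusted p = 0.0016) and changed by 0.56 ± 0.26 in the deletion (0.13). *clec-38* and *clec-39*, on the same list of studied genes, did not meet the count rule.

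*clec-87* and *clec-88* rose on azide in both genotypes. *clec-87* stood at 251, 130 and 62.0 CPM in the deletion on azide, against 35.1, 29.9 and 40.7 CPM in the deletion on water. In wild type it had 514, 599 and 505 CPM on azide and 58.1, 86.6 and 64.8 CPM on water. The deletion libraries on azide were the most spread (SD 96 CPM, n = 3) and all lay above those of the deletion on water. Its log2 fold changes were 2.07 ± 0.41 in the deletion and 2.95 ± 0.42 in wild type (SE; edgeR adjusted p = 0.006 and 0.00024). *clec-88* had 70.6, 32.2 and 16.4 CPM in the deletion on azide and 11.2, 8.49 and 12.5 CPM in the deletion on water, and 105, 118 and 115.2 CPM in wild type on azide and 12.1, 18.7 and 14.98 CPM in wild type on water. Its rise in the deletion, 1.89 ± 0.44, was lost without deletion water replicate 2 (adjusted p = 0.0566), and in wild type it was 2.88 ± 0.44.

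*clec-91* behaved likewise, with 50.8, 24.2 and 12.6 CPM in the deletion on azide, 7.99, 7.02 and 8.73 CPM in the deletion on water, 106, 127 and 104 CPM in wild type on azide and 11.3, 18.2 and 12.2 CPM in wild type on water. For all of *clec-87*, *clec-88* and *clec-91*, deletion azide replicate 1 was the highest of its group and replicate 3 the lowest.

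Markers of oocytes moved in the same order. All 13 genes of an oocyte and eggshell list rose on azide in both genotypes, and their summed CPM was 2827, 1761 and 928 in deletion azide replicates 1, 2 and 3, 542 to 861 in the deletion on water, 5873 to 6230 in wild type on azide and 769 to 1232 in wild type on water. All 6 vitellogenins rose in wild type, with sums of 34570 to 44400 CPM on azide and 4216 to 6191 CPM on water, against 238 to 2130 CPM on azide and 2226 to 2548 CPM on water in the deletion. The part of these cells in the lectin values was not tested.

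Relative to wild type, deletion animals on water differed at 13 of 147 members. Of the 147, 3 were higher (2.04%) and 10 lower (6.8%), against 0.744% of all genes called higher and 0.758% called lower. The medians were -0.188 for the members and -0.002 for all genes. The members' libraries did not overlap between genotypes for 24 that were higher and 48 that were lower in the deletion, against 10.3% and 12.6% of all genes. Of the 13 calls, *clec-52* and *clec-210* held in every setting tried. DESeq2 called 7 higher and 24 lower, and leaving out a library gave 1 to 7 higher and 4 to 22 lower, the highest of both without deletion azide replicate 3.

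*clec-52* had 7.27, 13.2 and 7.47 CPM in the deletion on water, against 38.5, 29.0 and 29.6 CPM in wild type on water. The groups were far apart, with a log2 fold change of -1.79 ± 0.23 (SE, edgeR adjusted p = 0.0036). On azide it had 14.7, 17.5 and 23.95 CPM in the deletion and 58.6, 66.5 and 65.9 CPM in wild type, a log2 fold change of -1.77 ± 0.23. *clec-52* rose on azide by 1.00 ± 0.23 in the deletion and 0.98 ± 0.22 in wild type, and the difference of 0.02 ± 0.32 between these did not pass the test (0.97).

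*clec-3* and *clec-84* were lower in the deletion on both plates as well. *clec-3* averaged 5.5 ± 2.0 CPM in the deletion and 11.6 ± 2.3 CPM in wild type on water (SD, n = 3 each), with a log2 fold change of -1.06 ± 0.22 (SE, edgeR adjusted p = 0.027). That call was lost without wild-type water replicate 1 (0.0862) or 3 (0.0965), deletion water replicate 1 (0.119) or 3 (0.0771) or wild-type azide replicate 3 (0.051). *clec-84* had 60.2, 64.7 and 47.1 CPM in the deletion on water and 119.1, 85.8 and 97.1 CPM in wild type on water, a log2 fold change of -0.81 ± 0.14 (adjusted p = 0.012; 0.0509 without deletion water replicate 3), and -1.23 ± 0.14 on azide. *clec-50*, second in the family by level, was lower in the deletion by 0.46 ± 0.09 on water (0.025), which was lost without any 1 of the 6 water libraries and without wild-type azide replicate 3, and by 0.68 ± 0.09 on azide (0.00015).

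Higher in the deletion on both plates were *clec-169*, *clec-41* and *clec-17*. *clec-169* was raised by 0.95 ± 0.13 on water and 1.22 ± 0.17 on azide (SE; edgeR adjusted p = 0.0036 and 0.00019). *clec-41* had 85.8, 80.6 and 87.7 CPM in the deletion on water, against 46.7, 59.3 and 61.1 CPM in wild type on water, and 175, 148 and 191 CPM in the deletion on azide, against 110, 121.6 and 121.8 CPM in wild type on azide. It was higher by 0.60 ± 0.12 on water (0.023), where the call was lost without wild-type water replicate 1 (0.079) or 3 (0.0606) or deletion water replicate 1 (0.0938) or 3 (0.0771), and by 0.54 ± 0.12 on azide (0.0034). *clec-17* was higher by 1.30 ± 0.30 on water (0.048), lost in 9 of the 12 fits that each left out a library, and by 1.75 ± 0.25 on azide (0.00019).

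Of the 10 members lower in the deletion on water, 7 (70.0%) were lower on azide too, which is 14.58% of the 48 lower there; the genotype comparisons on water and on azide share no library. For all genes, 57.9% of those lower on water were lower on azide too, which is 2.34% of those lower there. All 3 higher on water were higher on azide, as were 76.8% of all genes that were higher on water. Of the other 3 lower on water, *clec-186* and *clec-210* were not called on azide. The third was *clec-174*, lower in the deletion on water (log2 fold change -1.52 ± 0.29, edgeR adjusted p = 0.019) and higher on azide (0.93 ± 0.21, 0.0046). The water call at *clec-174* was lost without wild-type water replicate 2 (0.0638) or 3 (0.0974) or deletion water replicate 1 (0.0853) or 2 (0.0605).

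On azide the genotypes differed at many more members: the deletion was higher at 28 and lower at 48, beside 20.1% of all genes called higher and 18.7% lower. Of these 48, 20 belong to the set of low members described below. Most of that set, such as *clec-94* and *clec-107*, would not have met the count rule without the wild-type azide libraries. The medians were 0.04 for the members and 0.036 for all genes. With libraries centred on body wall muscle markers, 30 members were higher and 27 lower in the deletion, beside 2873 and 416 of all genes. With neuron markers, 12 were higher and 62 lower, beside 1380 and 6077 of all genes.

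The largest rises among members that the naming rule took, which asks for 5 CPM in the higher group, were *clec-180*, *clec-78*, *clec-64* and *clec-17*. Some lower members had larger fitted values, up to 3.10 at *clec-21*, which averaged 1.19 CPM in the deletion on azide and 0.139 CPM in wild type on azide. *clec-180* had 127, 147 and 75.7 CPM in the deletion on azide, against 17.3, 21.3 and 24.3 CPM in wild type on azide, a log2 fold change of 2.47 ± 0.26 (SE, edgeR adjusted p = 6.5e-05). *clec-78* had 8.98, 13.7 and 15.5 CPM in the deletion and 2.92, 2.04 and 2.34 CPM in wild type on azide, 2.38 ± 0.38 (0.00067). *clec-64* was higher by 1.97 ± 0.29. Among abundant members, *clec-83* was lower in the deletion on azide by 0.62 ± 0.14 (0.0047) and *clec-150* by 0.36 ± 0.11 (0.017; 0.0561 without wild-type azide replicate 2). Markers of several tissues moved with these rises: on azide 8 of 9 pharyngeal genes and 11 of 15 neuronal genes were higher in the deletion, as were 13 of 14 moulting genes and 9 of 12 hypodermal genes, and the moulting list summed to 3106 to 4504 CPM in deletion animals, against 811 to 876 CPM in wild-type animals, the hypodermal list to 2207 to 3648 CPM against 1064 to 1078 CPM. Of 12 intestinal genes, 1 was higher and 1 lower, and none of 11 body wall muscle genes was called. In the hypodermal list 1 gene was lower, as were all 13 oocyte and eggshell genes and all 6 vitellogenins. The part of these tissues in the lectin values was not tested.

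The largest falls among members that the naming rule took were *clec-197*, *clec-95*, *clec-207* and *clec-219*. *clec-197* had 2.20, 0 and 0 CPM in the deletion on azide, against 26.2, 20.8 and 7.37 CPM in wild type on azide (log2 fold change -4.64 ± 1.04 SE, edgeR adjusted p = 0.007). *clec-219* had 1.40, 0 and 0 CPM in the deletion and 12.5, 10.6 and 3.84 CPM in wild type, *clec-207* had 0.749, 0 and 0.0513 CPM and 8.54, 5.03 and 2.08 CPM, and *clec-95* had 0.699, 0 and 0 CPM and 7.27, 6.08 and 2.78 CPM. Within each genotype on azide, replicate 1 was the highest for all 4 genes, and in wild type replicate 3 was the lowest.

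These 4 belong to a wider set of low members that share a pattern. Chosen after the values were seen, and so given with no test, 26 members had at least 10 counts in all 3 wild-type azide libraries and fewer than 10 in all 3 deletion water libraries. Their summed CPM was 20.3, 3.34 and 1.39 in deletion azide replicates 1, 2 and 3, 1.43, 0.997 and 1.57 in the deletion on water, 131, 106 and 53.96 in wild type on azide and 17.7, 11.4 and 8.39 in wild type on water. Deletion azide replicate 1 was the highest of its group for every member with a count in that group. *clec-107* and *clec-183* had no count there, and 10 of the 26 had no count in any deletion water library. The choice itself sets these genes high in wild type on azide and low in the deletion on water.

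The set is spread over the genome, with 7 genes on chromosome I, 5 on II, 2 on III, 3 on IV, 8 on V and 1 on X. In wild type on azide its members averaged between 0.996 and 18.1 CPM, so single genes rest on few reads. Over deletion azide replicates 1, 2 and 3 the oocyte sums above fall in the same order as the set's and the vitellogenin sums, at 2130, 238 and 1046 CPM, do not. Over the wild-type azide replicates the vitellogenin sums, at 44400, 38850 and 34570 CPM, fall in the set's order and the oocyte sums, at 6168, 6230 and 5873 CPM, do not.

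**Figure D4:**
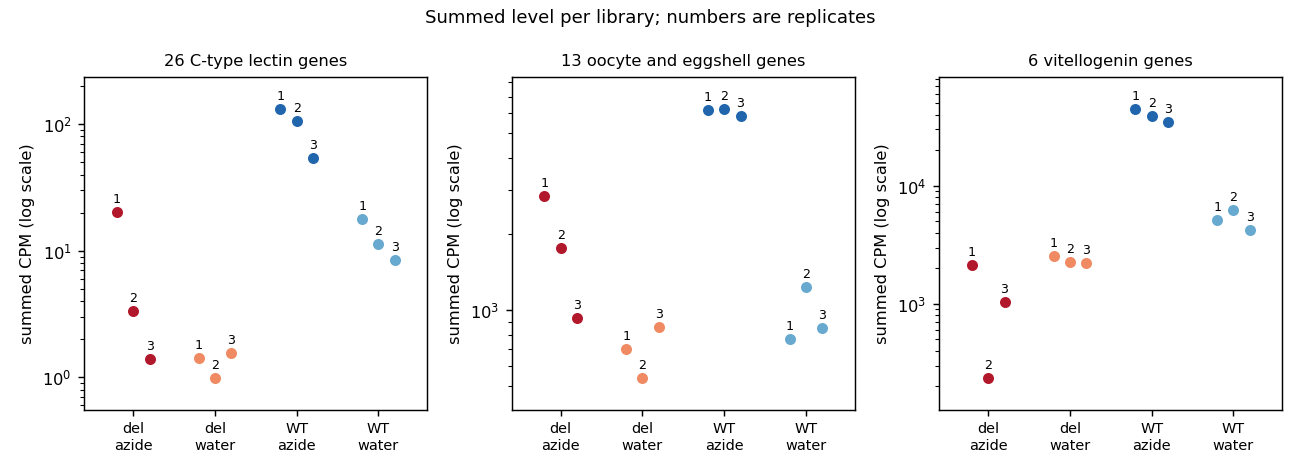
Summed CPM per library (log axes) of 26 low C-type lectin genes, 13 oocyte and eggshell genes and 6 vitellogenins, with groups from left to right as *mir-71* deletion (del) on azide, deletion on water, wild type (WT) on azide and wild type on water, and replicate numbers above the points. All 3 sums are highest in wild type on azide, which for the lectins follows from how they were chosen. Within the deletion on azide, all 3 sums are highest in replicate 1.

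*clec-223* and *clec-97* were the largest rises on azide in wild type by the naming rule. *clec-223*, also in that set, averaged 7.31 ± 0.71 CPM on azide and 0.507 ± 0.096 CPM on water (SD, n = 3 each), a log2 fold change of 3.83 ± 0.52 (SE, edgeR adjusted p = 5.1e-05). In the deletion *clec-223* rose by 2.37 ± 0.59, a call lost without deletion azide replicate 1 (adjusted p = 0.0581). *clec-97* had 11.2, 13.97 and 9.36 CPM in wild type on azide and 0.507, 1.79 and 1.33 CPM in wild type on water, a log2 fold change of 3.24 ± 0.69 (0.0021). In the deletion it had 2.99, 0.176 and 0.667 CPM on azide and 0.402, 0.837 and 0.784 CPM on water, 0.90 ± 0.78 (0.43). The rise of *clec-197* in wild type, 3.05 ± 0.93 (0.018), was lost without wild-type azide replicate 1 (0.063) or wild-type water replicate 2 (0.0549) or 3 (0.0631), and under DESeq2 (0.152).

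The azide effect itself differed between genotypes at 10 members, 7 with a more positive log2 fold change in the deletion and 3 with a more negative one, against 6.67% and 3.8% of all genes. This was tested as an interaction, and the share of members is near that of all genes. Without deletion azide replicate 3 the count was 15 more positive, and without deletion azide replicate 1 it was 12 more negative.

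*clec-180*, *clec-174* and *clec-210* passed the interaction test in every setting. *clec-180* fell in wild type to 17.3, 21.3 and 24.3 CPM on azide, against 140, 165 and 124 CPM on water, while the deletion had 127, 147 and 75.7 CPM on azide and 106, 172 and 139 CPM on water. Its log2 fold change was -0.25 ± 0.24 in the deletion and -2.77 ± 0.26 in wild type, a difference of 2.51 ± 0.35 (SE, edgeR adjusted p = 0.0015). On azide in wild type, 14 of 14 moulting genes and 8 of 12 hypodermal genes also fell, while 1 hypodermal gene rose. In the deletion, 7 moulting genes fell and 1 rose, and 4 hypodermal genes fell and 4 rose. The moulting list summed to 3106 to 4504 CPM in the deletion on azide and 4111 to 5228 CPM in the deletion on water. In wild type it summed to 811 to 876 CPM on azide and 4866 to 6375 CPM on water. The part of these markers in the *clec-180* values was not tested. The difference was 2.44 ± 0.36 at *clec-174* (0.00098), whose rise was steeper in the deletion, and 2.15 ± 0.42 at *clec-210* (0.0067).

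*clec-210* ended near the same level on azide in both genotypes from different levels on water. It had 1.897, 0.879 and 1.18 CPM in the deletion on azide and 4.86, 7.10 and 4.65 CPM in the deletion on water, and 0.972, 0.718 and 1.24 CPM in wild type on azide and 22.4, 15.8 and 17.7 CPM in wild type on water. The azide libraries overlapped between genotypes and the water libraries did not, with log2 fold changes between genotypes of 0.41 ± 0.34 on azide (edgeR adjusted p = 0.36) and -1.74 ± 0.26 on water (0.0052).

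In the other direction, *clec-204* had 1.45, 2.28 and 2.51 CPM in the deletion on azide, 3.12, 3.11 and 3.45 CPM in the deletion on water, 5.78, 7.12 and 6.98 CPM in wild type on azide and 3.39, 3.22 and 2.46 CPM in wild type on water. Its azide effect was -0.63 ± 0.24 in the deletion and 1.13 ± 0.23 in wild type, a difference of -1.76 ± 0.33 (SE, edgeR adjusted p = 0.0054).

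*clec-49* had 6.39, 9.80 and 7.08 CPM in the deletion on azide, 13.9, 20.9 and 12.2 CPM in the deletion on water, 29.8, 29.0 and 27.5 CPM in wild type on azide and 31.7, 23.3 and 25.3 CPM in wild type on water. It fell on azide in the deletion by 1.01 ± 0.21 (adjusted p = 0.0041) and changed by 0.10 ± 0.20 in wild type (0.68). The difference of -1.12 ± 0.29 (0.028) was lost when any 1 wild-type azide library was left out (0.0527 to 0.0667), without wild-type water replicate 2 (0.0526) or 3 (0.0642) and without deletion water replicate 2 (0.0503). *clec-10*, at -0.55 ± 0.15 (0.036), was lost in 9 of the 12 fits that left out a library. *clec-265* differed by 1.04 ± 0.23 (0.013) and *clec-64* by 1.46 ± 0.40 (0.034), the second lost in 9 such fits.

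Neighbouring members did not all move alike. The 5 members from *clec-94* to *clec-99* on chromosome I all rose on azide in wild type and were all lower in the deletion on azide, where wild type averaged between 3.63 and 11.5 CPM. The rise of *clec-95* was lost in 4 of the 12 fits that left out a library and under DESeq2 (adjusted p = 0.128). *clec-94*, *clec-95* and *clec-96* belong to the low set above. They had no count in any deletion water library or in deletion azide replicates 2 and 3. *clec-94* and *clec-96* met the count rule through the wild-type azide libraries alone, so the rule itself set them high there. In the longest run, 10 members from *clec-67* to *clec-78* on chromosome IV, 3 rose and 3 fell on azide in wild type, and 3 rose and 1 fell in the deletion. *clec-174* and *clec-67*, which rose, lie in that run with *clec-70*, which fell by 2.76 in the deletion and by 2.46 in wild type on the log2 scale. Of 7 members from *clec-36* to *clec-28* on chromosome V, 2 fell on azide in wild type, and deletion animals on azide had more of 3.

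**Figure D5:**
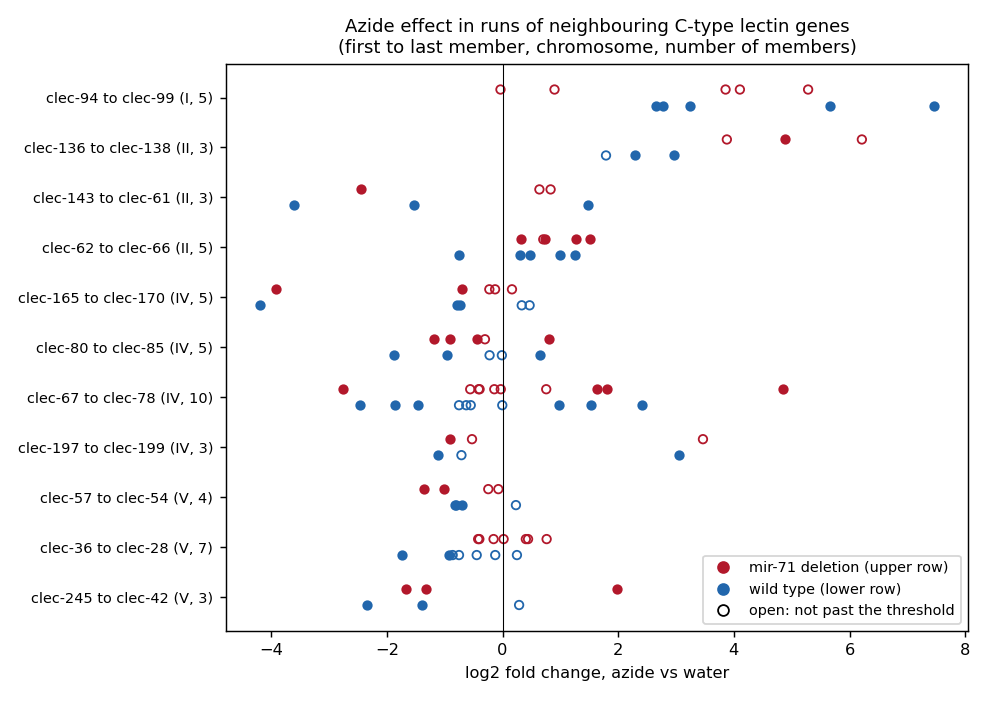
Log2 fold change on azide relative to water (horizontal axis) for members of the 11 runs of neighbouring C-type lectin genes, 1 run to a line with its chromosome and number of members; upper points are the *mir-71* deletion, lower points wild type, and open points did not pass the threshold. The run at the top (chromosome I, 5 members) lies to the right of 0 in wild type throughout, and the run of 10 on chromosome IV spans both sides. In the top run, *clec-94* and *clec-96* met the count rule through the wild-type azide libraries alone.

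Over the 4 comparisons of groups, 34 tested members were called in none (23.1%), 18 in 1 (12.2%), 68 in 2 (46.3%), 20 in 3 (13.6%) and 7 in all 4 (4.76%). Over all genes tested, these shares were 35.6%, 22.1%, 30.7%, 11.1% and 0.532%. The member shares include the low set, of which 22 were called higher on azide in wild type and 20 lower in the deletion on azide. Both comparisons use the wild-type azide libraries, without which most of that set would not have met the count rule. The galectins, the animal's other large lectin family, were tested at 12 genes, of which 2 rose and 4 fell on azide in wild type, and 1 rose and 1 fell in the deletion, with 27.5% and 27.1% of all genes called in wild type and 12.3% and 11.6% in the deletion. On azide deletion animals had more of 3 and less of 2, and on water less of 1. Of 25 regulators of immune genes, 3 rose and 7 fell on azide in wild type and 4 rose in the deletion. On azide deletion animals had more of 4 and less of 3. Between genotypes on azide, 20.1% of all genes were higher in the deletion and 18.7% lower, and neither these list counts nor their difference from all genes was tested.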

How the data were processed

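By the labels and the study's methods, poly(A) RNA of whole L4 larvae was sequenced in 12 libraries, 3 biological replicates in each of 4 groups, which were read from the sample labels. The authors trimmed reads with cutadapt 1.9.1, aligned them with HISAT2 2.0.1 to WBcel235 and made the deposited counts with HTSeq 0.6.1; DESeq2 was their test. The sources used here do not state strand use. The deposited FPKM values are counts scaled by gene size and library total (100% recomputed within 0.01), with a coding length as the size, so FPKM was used only to rank levels. Genes were matched by symbol to the Ensembl 115 annotation for exon overlap. No nucleotide or protein sequences were used here.

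A single edgeR 4.0.16 model (R 4.3.3) covered the 12 libraries with group means, TMM scaling and the robust quasi-likelihood test. The filter kept 15048 of 20212 genes (minimum count 10, total 15), among them 147 of the 150 members. Tests were two-sided, with Benjamini-Hochberg adjustment over the genes tested and a threshold of 0.05. There were 5 comparisons: between genotypes on each plate type, between azide and water within each genotype, and the interaction. CPM is TMM-scaled. Log2 CPM in the heat map used a prior count of 1. The libraries held 16828108 to 23937993 counts, with TMM factors of 0.924 to 1.19. The table had 0 rows that name no gene and 0 unused columns of sample values.

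Named members were, for each comparison of groups, the 4 largest rises and 4 largest falls past the threshold where the higher group averaged 5 CPM or more and libraries did not overlap; for the interaction the 3 largest in each direction; the 8 highest by FPKM; and the members of a list of studied genes. *clec-21*, *clec-186* and the neighbours in runs were named after their values were seen. The members, lists and rule were chosen with earlier results of these data known. The alternatives were 10 other settings of scaling, filter, tool and design, and 12 fits that each left out a library. Replicates that share a number did not deviate together, so the fit has no block. No 2 replicates were alike within sampling noise (chi-square per gene of 7.1 or more).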

Additional observations from a re-analysis of the deposited data

Results flagged for a closer look

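The azide effect differed between genotypes, by the interaction test, at 8 named members. The difference in log2 fold change, deletion minus wild type, was 2.51 at *clec-180*, 2.44 at *clec-174*, 2.15 at *clec-210*, 1.46 at *clec-64* and 1.04 at *clec-265*. It was -1.76 at *clec-204*, -1.12 at *clec-49* and -0.55 at *clec-10*. The calls at *clec-64*, *clec-49* and *clec-10* were each lost in at least 6 of the 12 fits that left out a library, and those at *clec-265* and *clec-204* in none of these 12.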

How the results depend on the processing

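Counts of members called moved with scaling and tool. For the deletion on water, the 10 lower members became 5 with neuron centring, 3 with muscle centring, 3 with ribosomal protein centring, 24 with DESeq2 and 6 with the replicate block; the 3 higher became 0 with muscle centring, 7 with ribosomal centring and 7 with DESeq2. For the deletion on azide, 28 higher became 12 with neuron centring and 18 with only the 2 groups fitted, and 48 lower became 27 with muscle centring. For azide in wild type, 45 lower became 27 with neuron centring, and in the deletion 29 lower became 16 with muscle centring. For the interaction, 7 higher became 3 with neuron centring, 4 with ribosomal centring and 11 with DESeq2, and 3 lower became 21 with neuron centring, 0 with muscle centring and 6 with DESeq2. Counts over all genes moved as well. With DESeq2, 112 higher and 114 lower for the deletion on water became 374 and 316. For the interaction, 572 lower became 3965 with neuron centring, 49 with muscle centring and 1351 with DESeq2. For the deletion on azide, 3024 higher became 1380 with neuron centring and 2820 lower became 416 with muscle centring. For azide in wild type, 4079 lower became 2072 with neuron centring. The cause was not tested. Leaving out a library gave 1 to 7 higher and 4 to 22 lower for the deletion on water, 21 to 33 and 40 to 53 on azide, 38 to 58 and 36 to 47 for azide in wild type, 22 to 32 and 21 to 31 for azide in deletion animals, and 5 to 15 and 1 to 12 for the interaction.

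Centring on neuron markers shifted the median log2 fold change of all genes to 0.324 for azide in wild type and -0.381 for the deletion on azide. Under it, 2 members that were not called in the main fit were called with the opposite sign. These were *clec-63* for the deletion on azide (-0.381, edgeR adjusted p = 0.0416) and *clec-84* for azide in wild type (0.378, adjusted p = 0.0423). With the replicate block, the counts were 2 higher and 6 lower for the deletion on water, 27 and 49 on azide, 53 and 44 for azide in wild type, 25 and 26 for azide in deletion animals and 5 and 3 for the interaction. Correlations between same-numbered replicates lay between -0.107 and 0.082. Medians of the members with genes at 0 set at a floor of 3 counts per group were -0.188 for the deletion on water, 0.04 on azide, 0.105 for azide in wild type and -0.021 in the deletion. Runs of neighbours numbered 11 at 10 kb and 12 at 50 kb. The 8 highest members were the same by FPKM and by TMM-scaled CPM per kilobase. Of the calls, 2 of 13, 35 of 76, 58 of 98, 34 of 55 and 3 of 10 held in every setting, in the order of the comparisons above. Members under 1 CPM rest on few reads.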
